A study of Mus musculus with 8 samples.

Results

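The genes of the calcium signalling machinery were examined in mouse osteoblast progenitors by RNA sequencing. The members were chosen by gene symbol: pore and auxiliary subunits of voltage-gated calcium channels, inositol trisphosphate and ryanodine receptors, Stim and Orai proteins, calcium pumps, calmodulin, the CaM kinase family, calcineurin subunits, the Rcan regulators of calcineurin and the NFAT factors. In all, 75 of the 51822 gene symbols in the deposited values matched, in 10 role groups. The cells were grown in α-MEM with 10% FBS to which 10 mM β-glycerophosphate, 10 nM dexamethasone and ascorbic acid were added in all groups, and either received the vehicle DMSO (control) or LAMZ (locamidazole, an aminoindazole derivative) at 1 μM. Harvest was on day 7 or day 14, and the 8 libraries fall into 4 groups of 2. The study asked how LAMZ acts on bone-forming cells, and calcium signalling was one of the pathways it examined. The sample labels name MC3T3-E1, an osteoblastic cell line from mouse calvaria, whereas the methods describe primary cells digested from the calvaria of newborn mice. Nothing in either source says that the 2 libraries of a group came from separate cultures, so the p values measure only the spread between libraries, which may be technical.

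Calcium enters a cell through channels in the plasma membrane or is released from the endoplasmic reticulum, and pumps return it to the store or the medium. In the cytosol it binds calmodulin, which switches on the CaM kinases and the phosphatase calcineurin. Calcineurin dephosphorylates the NFAT factors, which then enter the nucleus, and it is held in check by the Rcan proteins. In osteoblasts, this route is known to take part in differentiation and in the response to mechanical load.

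The values are RPKM, which takes account of the length of the gene and the depth of the library. The number of mapped reads recovered from the values was between 3463538 and 5832101 per library. The 2 replicates of each group had a correlation (Pearson's r) of 0.961 to 0.980 taken across genes, which are not independent replicates. The osteoblast markers were present, and 9 of the 12 at day 7 and 8 at day 14 passed the limma test as higher with LAMZ. Macrophage markers moved with the treatment. The summed RPKM of the 15 measured macrophage markers was 460 to 599 in day 7 control libraries, 7.68 to 9.56 with LAMZ at day 7, 1113 to 1160.0 in day 14 control libraries and 7.55 to 8.08 with LAMZ at day 14. Of the 13 that were tested, 11 were lower with LAMZ at day 7 and 12 at day 14. The defining markers C1qa, C1qb, C1qc and Tyrobp were listed at 0 in all 4 LAMZ libraries and at 17.5 to 97.4 RPKM in the control libraries, and Adgre1 was listed at 0 in 1 LAMZ library of each day. No marker was at 0 in all 8 libraries. In RNA of a whole culture, fewer cells of a type and less RNA per cell cannot be told apart. The part of the macrophage signal in the results on LAMZ was not tested. Of the 7 smooth muscle markers, 6 were higher with LAMZ at day 14. In the remaining lists, the numbers of genes called at day 7 and day 14 were 1 and 2 of 4 tested osteoclast markers, 1 and 1 of 3 tested skeletal muscle markers and 0 and 1 of 2 tested neuron markers, all higher. Lower were 1 and 1 of 1 tested endothelial marker and 1 and 3 of 4 tested adipocyte markers.

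Of the 75 members, 44 reached 1 RPKM in 2 or more libraries and were tested. The mean RPKM of these 44 ranged from 0.671 for Atp2a3 to 167 for Calm2. Calm2 and Calm3, which encode calmodulin, had the highest means. High means were also found for the CaM kinase Camk2g, the calcineurin regulatory subunit Ppp3r1, the endoplasmic reticulum pump Atp2a2, the channel subunit Cacnb3 and the factor Nfatc4. The 31 members that were not tested had at most 1.32 RPKM in any library, and 21 of them had at most 10 reads in every library. Among them were 12 of the 16 auxiliary subunits of voltage-gated channels, 6 of the 10 pores and all 3 ryanodine receptors, which release calcium from the store in muscle and neurons. The untested members with the highest mean in their role group were Cacna1h, Cacna2d3, Ryr3, Atp2a1, Camk1g, Ppp3r2 and Nfatc2. Of these, only Camk1g, a CaM kinase, reached an RPKM of 1 in any library. Camk1g had 6 and 5 reads in day 7 control, 11 and 19 with LAMZ at day 7, 7 and 12 in day 14 control and 1 and 3 with LAMZ at day 14. Atp2a3 passed the filter through the day 14 LAMZ group alone, so its difference from other groups is in part set by the filter.

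**Figure D1:**
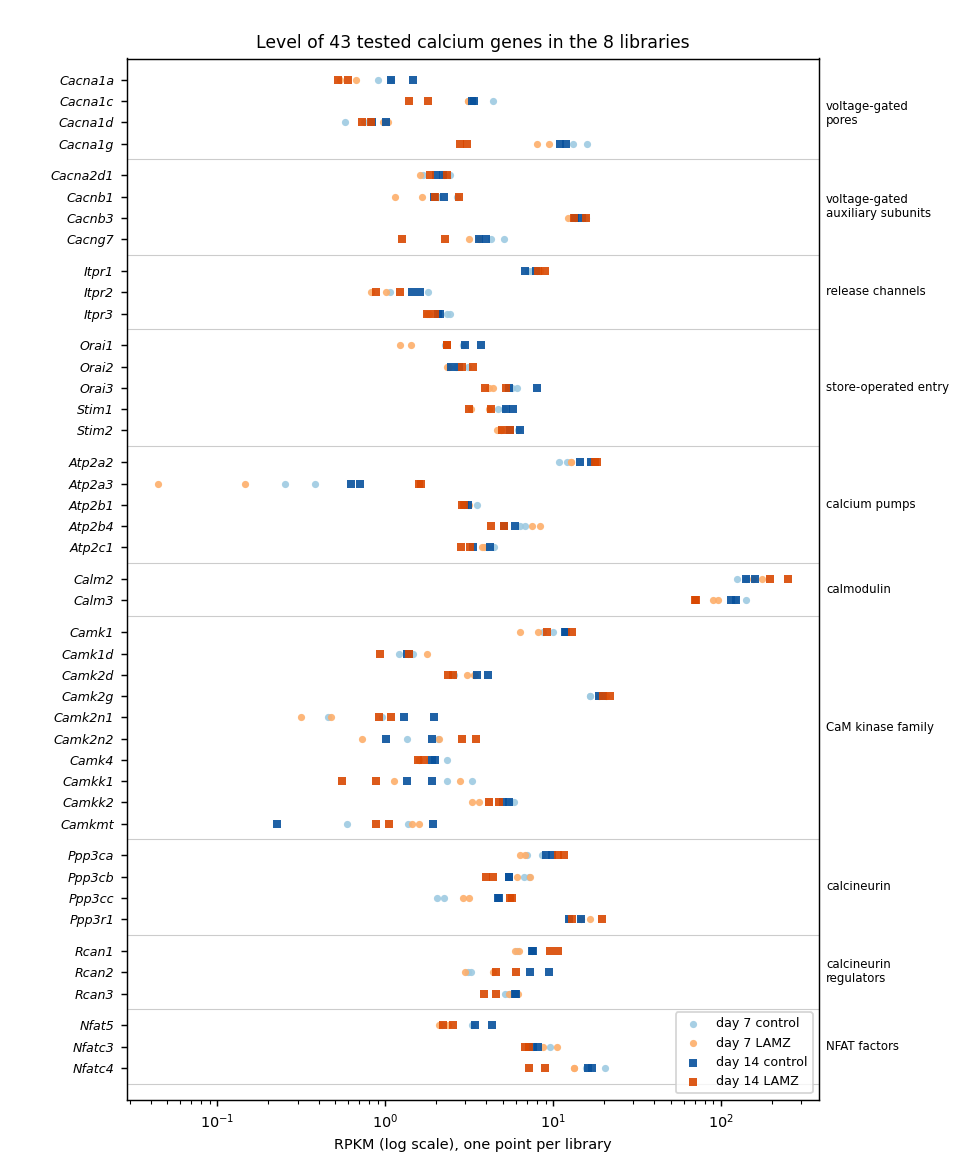
RPKM (log scale) of 43 tested members, with a point for each of the 8 libraries, circles for day 7, squares for day 14, blue for control and orange for LAMZ, grouped by role. Calm2 and Calm3 lie above the other members drawn, and the orange squares of Cacna1g and Nfatc4 lie to the left of all other points of these genes.

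At day 7, LAMZ-treated cells expressed 4 of the 44 tested members at a lower level than control cells and none at a higher level. They were Cacna1g, the pore of a T-type calcium channel, Orai1, the pore of the store-operated channel, Calm3, a calmodulin gene, and Camkk2, the kinase that switches on other CaM kinases. At day 14, 7 members differed. Cacna1g, Cacna1c, Cacng7, Calm3, Nfatc4 and Rcan3 were lower with LAMZ, and Calm2, another calmodulin gene, was higher. These calls rest on an adjusted p under 0.05 from limma over 12514 genes. By the same rule, 12.8% of all tested genes were called at day 7, 4.35% higher and 8.49% lower, and 23% at day 14, 6.96% higher and 16% lower. The members called made up 9.09% and 15.9% of those tested, so neither share was above that of all genes. The median log2 fold change of the tested members was -0.20 at day 7 and -0.15 at day 14, beside -0.08 and -0.15 for all tested genes. The balance of all calls depended on the scaling between libraries. At day 7 and day 14, 33.9% and 30.3% of the genes called were higher with LAMZ. With all libraries set to a common sum these shares were 8.69% and 8.16%, and with centring on the median they were 53.5% and 56.3%. The same-sum scaling also moved the median log2 fold change of all genes to -0.31 and -0.43. Under it, 15 and 20 of the 44 members were called, every one of them lower. Of the 12514 tested genes, it called 3592 and 5796, of which 3280 and 5323 were lower. After median centring, 1 of 3 called members was higher at day 7 and 8 of 12 at day 14. At day 14, limma-voom on the recovered reads also called Cacna1a, Camk2d, Nfat5, Rcan2 and Stim1, so a member said below not to have passed the test may pass another. It called Atp2a3 too, but the filter let that gene in through the day 14 LAMZ group alone. No member called in these comparisons turned its direction under any scaling.

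**Figure D2:**
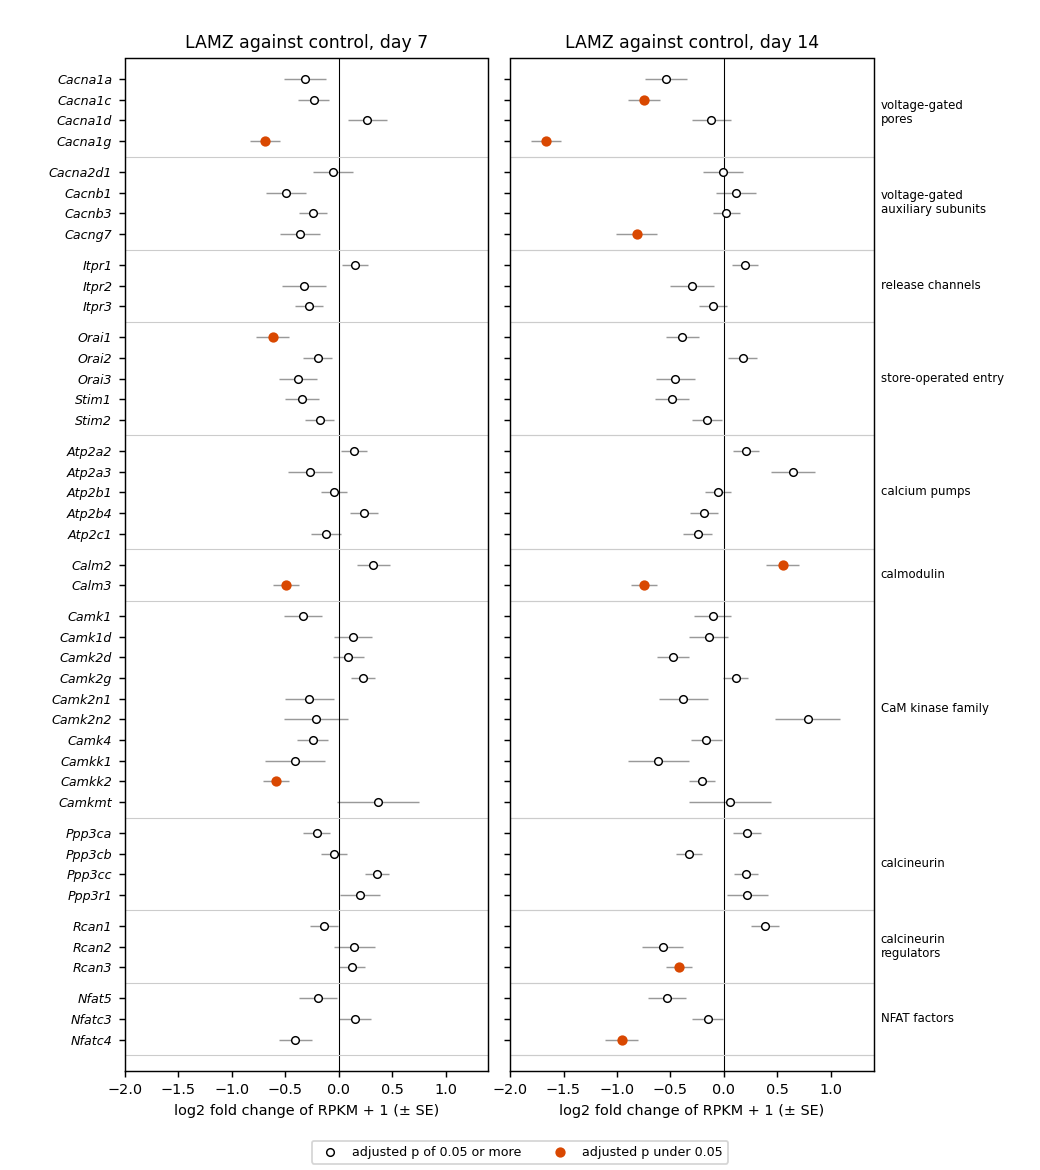
Log2 fold change (LAMZ against control, on RPKM + 1) of 43 tested members at day 7 and day 14, with bars for the standard error from limma; filled points have an adjusted p under 0.05. All 4 filled points at day 7 and 6 of 7 at day 14 lie left of 0, with Cacna1g at -1.66 farthest from 0 at day 14.

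Without regard to the test, 15 of the 44 members had both LAMZ libraries below both control libraries on both days, beside 23.7% of all tested genes, and 5 had both above on both days, beside 9.52%. The 15 lower members make up 34.1% of those tested and the 5 higher members 11.4%. These counts use the RPKM as deposited and were not repeated under the other scalings, which can change them. The 15 included 4 of the 5 store-operated entry genes (Stim1, Stim2, Orai1 and Orai3) and the inositol trisphosphate receptors Itpr2 and Itpr3. Stim2 was among them by narrow margins. Its lowest control and highest LAMZ values were 4.894 and 4.861 RPKM at day 7, and 5.515 and 5.512 at day 14. The 5 were Atp2a2, Calm2, Camk2g, Itpr1 and Ppp3cc.

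Among the voltage-gated pores, Cacna1g had the highest level and the largest difference. Cacna1g (ENSMUSG00000020866) lies on chromosome 11 from 94408391 to 94474198 (GRCm38, minus strand). Its RPKM was 15.99 and 13.2 in day 7 control libraries and 7.96 and 9.37 with LAMZ, and 10.9 and 11.9 in day 14 control libraries and 2.79 and 3.07 with LAMZ. The LAMZ libraries were below the control libraries on both days, and those of day 14 were the lowest of all. The log2 fold change was -0.69 (standard error, SE, 0.14, limma adjusted p = 0.0171) at day 7 and -1.66 (SE 0.14, adjusted p = 0.000174) at day 14. At day 14 the mean with LAMZ was 0.256 of that in control cells, and these values rest on 152 to 611 reads per library. The call at day 14 was kept in all 20 alternatives, whereas that at day 7 was kept in 15 of 20 and was lost without day 7 control replicate 1 or either day 7 LAMZ library (adjusted p up to 0.124). Of the summed RPKM of the 10 pores, Cacna1g made up 74.3% and 64.5% in control and 60.4% and 62.4% with LAMZ at day 7, and 60.8% and 66.9% in control and 44.3% and 44.5% with LAMZ at day 14. Cacna1c, the pore of the L-type channel of heart and smooth muscle, had 3.39 and 4.36 in day 7 control, 3.12 and 3.12 with LAMZ at day 7, 3.40 and 3.29 in day 14 control, and 1.39 and 1.80 with LAMZ at day 14. It differed only at day 14 (log2 fold change -0.75, SE 0.15, limma adjusted p = 0.00925), and this call was lost without day 14 control replicate 1 or without day 14 LAMZ replicate 1 (adjusted p up to 0.0626). The L-type pore Cacna1d, at 0.574 to 1.04 RPKM, did not pass the test in any of the comparisons. The P/Q-type pore Cacna1a had 1.47 and 1.08 RPKM in day 14 control and 0.601 and 0.520 with LAMZ. Its log2 fold change of -0.54 did not pass the test (limma adjusted p = 0.0823), but it was called lower under the same-sum scaling, without the mean-variance trend and by limma-voom.

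Auxiliary subunits carry the pore to the membrane and set how it opens. Cacng7, a gamma subunit that also belongs to the regulators of glutamate receptors, had 3.97 and 3.62 RPKM in day 14 control libraries and 1.26 and 2.27 with LAMZ (log2 fold change -0.82, SE 0.19, limma adjusted p = 0.0171). These values rest on 18 to 52 reads per library over the 8 libraries, and the call was lost without either day 14 control library or without day 14 LAMZ replicate 1 (adjusted p up to 0.0838). At day 7 Cacng7 had 4.24 and 5.09 RPKM in control and 3.17 and 3.62 with LAMZ, and the difference did not pass the test (adjusted p = 0.254). Cacnb3, the beta subunit with the highest level, ranged from 12.2 to 15.7 RPKM over the 8 libraries. Its log2 fold change was -0.24 at day 7 and 0.02 at day 14 (SE 0.13), and neither passed the test. The ratio of Cacna1g to Cacnb3 within a library is unchanged when all RPKM of the library are multiplied by the same factor. It was 1.07 and 0.838 in day 7 control and 0.654 and 0.693 with LAMZ at day 7. At day 14 it was 0.812 and 0.802 in control and 0.211 and 0.196 with LAMZ. The 2 genes thus changed unequally with LAMZ, and the ranges did not overlap on either day.

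Store-operated entry couples an empty store to the plasma membrane, with the Stim proteins as sensors and the Orai proteins as pores. All 5 genes were tested, at 1.23 to 7.96 RPKM. Orai1 had 2.89 and 2.26 RPKM in day 7 control and 1.23 and 1.42 with LAMZ, and 3.73 and 2.99 in day 14 control and 2.32 and 2.32 with LAMZ. The LAMZ libraries were below the control libraries of the same day, by a log2 fold change of -0.62 (SE 0.15, limma adjusted p = 0.0376) at day 7 and -0.39 (adjusted p = 0.107) at day 14. Orai1 had only 12 to 46 reads per library, and its call at day 7 was kept in 6 of 19 alternatives. It was lost when day 7 control replicate 1, or any 1 of the 4 LAMZ libraries, was left out (adjusted p up to 0.184). Stim1 had 5.25 and 5.78 RPKM in day 14 control and 3.13 and 4.25 with LAMZ, a log2 fold change of -0.48 that did not pass the test (adjusted p = 0.0647). Orai3, the Orai gene with the highest mean, had 5.48 and 7.96 in day 14 control and 3.92 and 5.26 with LAMZ (adjusted p = 0.110). Stim2 ranged from 4.61 to 6.38 and Orai2 from 2.31 to 3.34 over the 8 libraries, and neither passed the test on either day.

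Calcium leaves the store through inositol trisphosphate receptors. Of these, Itpr1 had the highest level, 63.4% to 75.9% of the summed RPKM of the 3 genes, and ranged from 6.76 to 8.91 RPKM. None of Itpr1, Itpr2 and Itpr3 passed the main test in any of the 5 comparisons. Under other scalings, Itpr1 was called higher with LAMZ at day 14 (median centring) and Itpr3 lower at day 7 (same sum). Itpr1 and Itpr3 each overlap a gene on the opposite strand in GENCODE M21, and whether the reads were assigned by strand is not given in the sources used here.

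Pumps of the Atp2a genes fill the endoplasmic reticulum, those of the Atp2b genes export calcium, and those of the Atp2c genes fill the Golgi. None of the 5 tested pumps passed the test of LAMZ against control on either day, and Atp2a2 and Atp2b4 differed between the days within the LAMZ group. At day 14, Atp2a2 was called higher with LAMZ in 1 of 20 alternatives, that of median centring, and Atp2a3 in 8 of 19. Under the same-sum scaling, Atp2b4 and Atp2c1 were called lower with LAMZ at day 14. Atp2a2, the common pump of the endoplasmic reticulum, had 10.9 and 12.1 RPKM in day 7 control, 12.8 and 12.8 with LAMZ at day 7, 14.4 and 16.8 in day 14 control, and 18.3 and 17.8 with LAMZ at day 14. Between the days it rose with LAMZ by 0.47 on the log2 scale (SE 0.12, limma adjusted p = 0.0384), beside 0.41 in control cells (adjusted p = 0.0978), and the call with LAMZ was lost when any 1 of the 4 LAMZ libraries was left out (adjusted p up to 0.158). Atp2a3, a pump of blood and epithelial cells, had 1 and 4 reads with LAMZ at day 7 and 50 and 41 reads with LAMZ at day 14, against 5 and 7 reads in day 7 control and 20 and 15 in day 14 control. Its RPKM reached 1.62 and 1.59 with LAMZ at day 14 and at most 0.705 elsewhere. The LAMZ libraries of day 14 stood above all others. Since Atp2a3 was tested only because of that group, its differences from the other groups are given as a description, although limma called its change between the days with LAMZ. Atp2b4, the exporter with the highest level, had 7.48 and 8.35 RPKM with LAMZ at day 7 and 5.10 and 4.28 at day 14, a fall of -0.65 on the log2 scale (SE 0.13, limma adjusted p = 0.0166). That call was lost without either day 7 LAMZ library or without day 14 LAMZ replicate 2 (adjusted p up to 0.116). In control cells Atp2b4 had 6.32 and 6.77 at day 7 and 5.06 and 5.91 at day 14 (adjusted p = 0.375).

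Calm2 and Calm3 encode the same protein from separate chromosomes, and the balance between their transcripts differed between LAMZ-treated and control cells. Calm3 (chromosome 7 from 16915379 to 16924114) had 140.1 and 120.2 RPKM in day 7 control libraries and 88.8 and 95.1 with LAMZ, and 123 and 115 in day 14 control libraries and 69.6 and 71.2 with LAMZ. The LAMZ libraries were below the control libraries on both days, by a log2 fold change of -0.49 (SE 0.12, limma adjusted p = 0.0348) at day 7 and -0.75 (SE 0.12, adjusted p = 0.00384) at day 14. The call at day 14 was kept in all 20 alternatives and that at day 7 in 9 of 20. At day 7 it was lost when day 7 control replicate 1, or any 1 of the 4 LAMZ libraries, was left out (adjusted p up to 0.192). Calm2 (chromosome 17 from 87433412 to 87446935) moved the other way. It had 139.9 and 124 RPKM in day 7 control and 175 and 155 with LAMZ, and 142 and 158 in day 14 control and 248 and 194 with LAMZ. Again the libraries of the groups did not overlap on either day, but only day 14 passed the test (log2 fold change 0.55, SE 0.16, limma adjusted p = 0.0379). That call was kept in 9 of 20 alternatives and was lost without either day 7 LAMZ library, without either day 14 control library or without day 14 LAMZ replicate 1 (adjusted p up to 0.206).

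**Figure D3:**
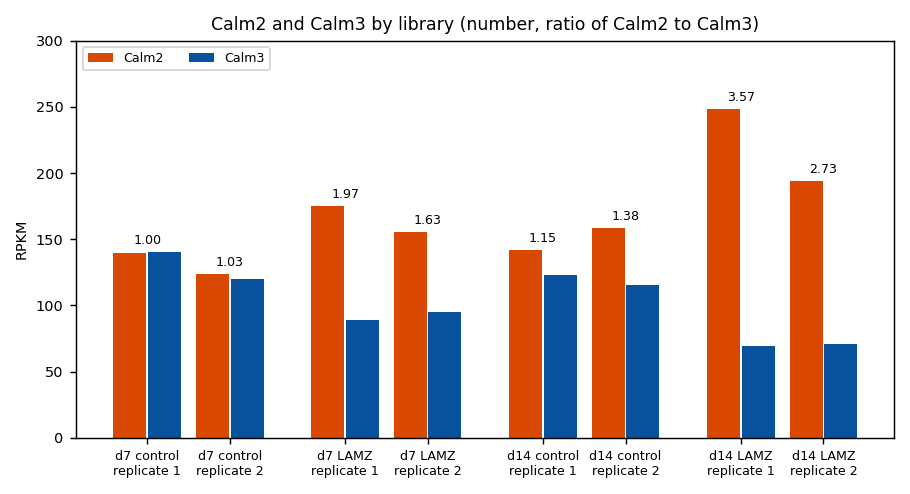
RPKM of Calm2 (orange bars) and Calm3 (blue bars) in each of the 8 libraries (d7, day 7; d14, day 14), with the ratio of Calm2 to Calm3 printed above each pair. The blue bars are lower in all LAMZ libraries than in all control libraries, and the ratio is 1.63 or more in all LAMZ libraries and 1.38 or less in all control libraries.

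A ratio within a library does not change when all RPKM of the library are multiplied by the same factor. The ratio of Calm2 to Calm3 was 0.999 and 1.03 in day 7 control, 1.97 and 1.63 with LAMZ at day 7, 1.15 and 1.38 in day 14 control, and 3.57 and 2.73 with LAMZ at day 14. The groups did not overlap on either day, and with 2 libraries against 2 the smallest two-sided p of an exact permutation test is 0.333. These values rest on 628 to 2126 reads per library and gene. The coding parts of calmodulin genes are alike and processed copies of calmodulin genes exist in the genome, so how the reads were split between them is uncertain.

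The CaM kinases carry the calmodulin signal to other proteins. Camk2g, the CaMKII gene with the highest level, had 16.5 to 21.8 RPKM over the 8 libraries and made up 78.8% to 85.4% of the summed RPKM of the 4 CaMKII genes. It did not pass the test in any of the comparisons (log2 fold change 0.23 at day 7 and 0.11 at day 14, SE 0.11). Camk2d had 3.52 and 4.10 RPKM in day 14 control and 2.53 and 2.37 with LAMZ, and its log2 fold change of -0.48 missed the threshold (SE 0.15, limma adjusted p = 0.0501). It passed the test under 4 of 19 alternatives. The neuronal forms Camk2a and Camk2b were not tested, at no more than 0.830 and 0.696 RPKM in any library. Camkk2 had 5.51 and 5.87 RPKM in day 7 control and 3.63 and 3.30 with LAMZ, a log2 fold change of -0.58 (SE 0.12, limma adjusted p = 0.0189). At day 14 it had 5.01 and 5.47 in control and 4.13 and 4.73 with LAMZ, and the difference did not pass the test (log2 fold change -0.20, adjusted p = 0.267). The call at day 7 was kept in 14 of 20 alternatives and was lost when any 1 of the 4 day 7 libraries was left out (adjusted p up to 0.112). Camk1, the second most abundant of the kinases, had 6.36 to 12.9 RPKM and did not pass the test, and neither did Camk4, Camk1d, Camkk1 or the CaMKII inhibitors Camk2n1 and Camk2n2. The name pattern also took in Camkmt, which methylates calmodulin and is no kinase, at 0.228 to 1.92 RPKM. Camk1 shares exon sequence with Ogg1 on the opposite strand in GENCODE M21.

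Calcineurin is a phosphatase of a catalytic and a regulatory subunit, and its catalytic subunit comes from 3 genes. No calcineurin gene passed the main test of LAMZ against control on either day, although some were called under other scalings. Ppp3cc (log2 fold change 0.36 at day 7, limma adjusted p = 0.0797) was called higher on both days after median centring and after quantile normalization. Ppp3ca was called lower at day 7 under the same-sum scaling and higher at day 14 after median centring. Ppp3cb was called lower at day 14 under the same-sum scaling. Ppp3cc stood below Ppp3cb in every library but those of LAMZ at day 14, where it stood above. Ppp3ca had 8.56 and 6.97 RPKM in day 7 control, 6.38 and 6.76 with LAMZ at day 7, 9.05 and 9.87 in day 14 control, and 10.7 and 11.7 with LAMZ at day 14. Ppp3cb had 7.14 and 6.67, 6.12 and 7.27, 5.45 and 5.48, and 3.96 and 4.36 RPKM in the same order of groups. Ppp3cc had 2.04 and 2.22, 2.89 and 3.15, 4.68 and 4.77, and 5.55 and 5.68. At day 14, Ppp3cc was above its day 7 level in both treatments, and Ppp3cb with LAMZ at day 14 was below all its other libraries. In control cells, Ppp3cc rose between the days by 0.87 on the log2 scale (SE 0.11, limma adjusted p = 0.00967), on 15 and 15 reads at day 7 and 49 and 42 at day 14. Ppp3cc overlaps Gm49417 on the opposite strand in GENCODE M21, which leaves its reads uncertain. With LAMZ, Ppp3cc rose by 0.72 (adjusted p = 0.00690) and Ppp3ca by 0.68 (SE 0.13, adjusted p = 0.0131), and Ppp3cb changed by -0.57 (SE 0.12, adjusted p = 0.0201). In control cells, Ppp3ca changed by 0.26 (adjusted p = 0.293) and Ppp3cb by -0.29 (adjusted p = 0.221), neither past the threshold, and whether the change with time differed between LAMZ-treated and control cells did not pass the test for any of the 3 genes (adjusted p of the difference 0.304 to 0.686). The control call of Ppp3cc was lost without day 7 control replicate 1 or either day 14 control library (adjusted p up to 0.069). With LAMZ, the calls were lost without either day 7 LAMZ library or day 14 LAMZ replicate 2 for Ppp3ca (adjusted p up to 0.0907), without any 1 of the 4 LAMZ libraries for Ppp3cb (up to 0.135), and without day 7 LAMZ replicate 1 or day 14 LAMZ replicate 2 for Ppp3cc (up to 0.0560).

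Within the sum of the 3 catalytic genes, Ppp3cb made up 40.2% and 42.1% in day 7 control, 39.8% and 42.3% with LAMZ at day 7, 28.4% and 27.2% in day 14 control, and 19.6% and 20.1% with LAMZ at day 14. Ppp3cc made up 11.5% and 14.0% in day 7 control and 18.8% and 18.4% with LAMZ at day 7, and 24.4% and 23.7% in day 14 control and 27.5% and 26.2% with LAMZ at day 14. The share of Ppp3cc was thus higher in LAMZ libraries of both days, and that of Ppp3cb was lower at day 14, with no overlap of the groups. The sum itself was 15.9 to 17.7 RPKM in control and 15.4 to 17.2 with LAMZ at day 7, and 19.2 to 20.1 in control and 20.2 to 21.7 with LAMZ at day 14, so it was higher at day 14 in both treatments. The regulatory subunit Ppp3r1 had 12.3 to 19.4 RPKM and did not pass the test, and it shares exon sequence with Wdr92 on the same strand. Ppp3r2, its testis form, had no more than 0.0775 RPKM.

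The Rcan proteins bind calcineurin and inhibit it. Rcan1 has 2 starts among the RefSeq windows used here. The internal start is known as a target of NFAT, which makes its transcript a common readout of calcineurin activity. The RPKM of Rcan1 does not separate its starts. The 250 bases before each of the 2 RefSeq starts, and those before the RefSeq start of the factor Nfatc4, are shown to let the starts be compared. They come from RefSeq on GRCm38.p6, with matches to the NFAT core GGAAA, to the CRE motif TGACGTCA and to the AP-1 motif TGACTCA on either strand in capitals. The internal start window of Rcan1 lies at chr16:92400079-92400328 (minus strand) in an intron of the gene, the upstream window at chr16:92466170-92466419 (minus strand), and the Nfatc4 window at chr14:55824545-55824794 (plus strand). The Nfatc4 window precedes the start given by RefSeq, which lies inside the gene as GENCODE M21 bounds it, since another transcript there begins farther upstream. The upstream window of Rcan1 likewise lies inside the bounds of its gene, which reach 92470867.
Rcan1 internal start: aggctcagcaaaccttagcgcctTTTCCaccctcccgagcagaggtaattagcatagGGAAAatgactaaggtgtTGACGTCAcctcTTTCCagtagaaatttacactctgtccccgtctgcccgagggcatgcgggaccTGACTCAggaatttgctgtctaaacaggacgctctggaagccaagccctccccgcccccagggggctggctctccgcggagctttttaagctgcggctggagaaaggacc
Rcan1 upstream start: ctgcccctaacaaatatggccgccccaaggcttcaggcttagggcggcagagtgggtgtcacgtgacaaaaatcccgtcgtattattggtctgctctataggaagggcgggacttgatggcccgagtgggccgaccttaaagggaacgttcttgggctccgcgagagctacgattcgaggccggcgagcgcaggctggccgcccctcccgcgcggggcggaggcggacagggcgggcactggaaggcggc
Nfatc4 RefSeq start: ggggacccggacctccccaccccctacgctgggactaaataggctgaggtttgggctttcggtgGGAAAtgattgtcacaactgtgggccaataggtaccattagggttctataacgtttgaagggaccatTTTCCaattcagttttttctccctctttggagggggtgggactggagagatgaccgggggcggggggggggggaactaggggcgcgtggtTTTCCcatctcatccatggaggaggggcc

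The internal window of Rcan1 held 3 matches to the NFAT core, 1 to the CRE motif and 1 to the AP-1 motif, and the upstream window held none of the 3 motifs. The Nfatc4 window held 3 matches to the NFAT core. Over all 32851 windows of this length, 55.6% held at least 1 NFAT core, 6.39% at least 3, 1.55% the CRE motif and 4.46% the AP-1 motif. Windows were found for 56 of the 75 members, and that of Rcan1 was the only one of these with the CRE motif. A match describes the letters and is no evidence of binding. The internal and upstream windows held 11 and 24 CpG dinucleotides.

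Rcan1 had 7.51 and 6.11 RPKM in day 7 control and 6.27 and 5.90 with LAMZ, and 7.51 and 7.59 in day 14 control and 10.7 and 9.56 with LAMZ. The 2 LAMZ libraries of day 14 were the highest of the 8. The rise between the days with LAMZ was 0.65 on the log2 scale (SE 0.13, limma adjusted p = 0.0150), and was lost when any 1 of the 4 LAMZ libraries was left out (adjusted p up to 0.104). The difference from control at day 14 was 0.38 and did not pass the test (adjusted p = 0.0694), but it was called in 2 of 20 alternatives, those of median centring and quantile normalization. Rcan2 moved in control cells, with 3.12 and 3.24 RPKM at day 7 and 7.26 and 9.39 at day 14 (log2 fold change 1.15, SE 0.19, limma adjusted p = 0.0194). This call was lost when any 1 of the 4 control libraries was left out (adjusted p up to 0.0961). With LAMZ, Rcan2 had 4.38 and 2.97 at day 7 and 4.58 and 5.96 at day 14, a change of 0.43 that did not pass the test (adjusted p = 0.168). The difference between these 2 changes did not pass the test either (adjusted p = 0.248). At day 14, Rcan2 with LAMZ differed from control by -0.57 on the log2 scale, which did not pass the test (limma adjusted p = 0.0669). It was called lower in 2 of 20 alternatives, the same-sum scaling and limma-voom. Rcan3 had 5.94 and 6.02 RPKM in day 14 control and 4.56 and 3.89 with LAMZ (log2 fold change -0.42, SE 0.12, limma adjusted p = 0.0420). The Rcan3 call was kept in 5 of 20 alternatives and was lost whenever any 1 of the 8 libraries was left out (adjusted p up to 0.211). The ratio of Rcan1 to Rcan2 within a library was 1.03 and 0.808 in day 14 control and 2.35 and 1.60 with LAMZ, while at day 7 the control values (2.41 and 1.89) and the LAMZ values (1.43 and 1.98) overlapped.

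NFAT factors are the best known targets of calcineurin, except Nfat5, which responds to osmotic stress. Nfatc4 had the highest level of the 4 members and lies on chromosome 14 from 55823144 to 55833943. It had 20.3 and 15.7 RPKM in day 7 control and 13.2 and 13.2 with LAMZ, and 16.03 and 17.01 in day 14 control and 7.21 and 8.92 with LAMZ. The LAMZ libraries were below the control libraries on both days, and only day 14 passed the test (log2 fold change -0.96, SE 0.15, limma adjusted p = 0.00369, beside -0.40 and adjusted p = 0.129 at day 7). The call at day 14 was kept in all 20 alternatives. These values rest on 169 to 346 reads per library. The share of Nfatc4 in the summed RPKM of the 4 genes was 58.3% and 57.3% in day 14 control and 43.6% and 47.0% with LAMZ. Nfatc3 had 6.77 to 10.6 RPKM over the 8 libraries, with a log2 fold change of 0.15 at day 7 and -0.15 at day 14 (SE 0.15), neither past the threshold. The ratio of Nfatc3 to Nfatc4 was 0.473 and 0.475 in day 14 control and 0.939 and 0.801 with LAMZ. Nfat5 had 3.41 and 4.35 RPKM in day 14 control and 2.19 and 2.53 with LAMZ (log2 fold change -0.53, adjusted p = 0.0687). Nfatc2 was not tested, at no more than 0.493 RPKM.

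**Figure D4:**
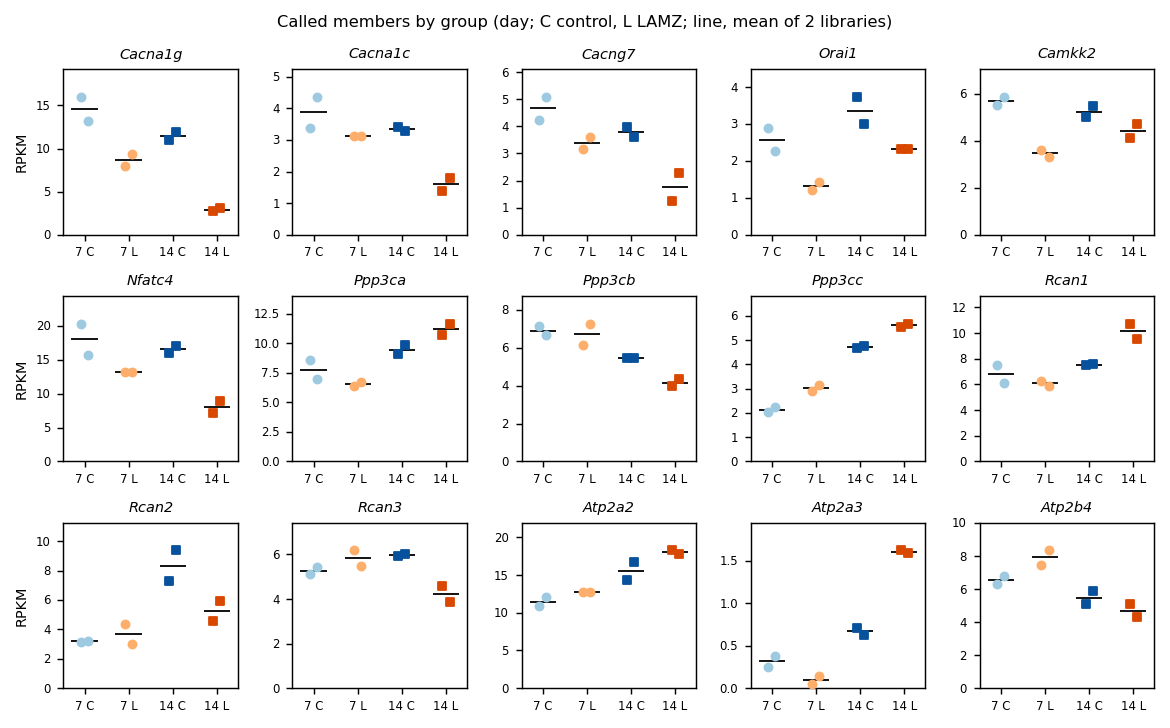
RPKM of 15 called members in each group (7 C and 14 C, control at day 7 and day 14; 7 L and 14 L, LAMZ), with a point for each library and a line at the mean of the 2 libraries. With LAMZ at day 14, Cacna1g, Cacna1c, Cacng7 and Nfatc4 are at their lowest, and Ppp3ca, Ppp3cc, Rcan1 and Atp2a3 at their highest.

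Between day 7 and day 14, 2 members were called in control cells, Ppp3cc and Rcan2, both higher, beside 4.86% of all tested genes. In LAMZ-treated cells, 11 of 44 members were called, 25% beside 14.4% of all tested genes. The 11 include Atp2a3, which the filter let in through the day 14 LAMZ group alone. The share also depended on the model. With the replicate block within each day, 1 member was called, beside 452 of 12514 tested genes. The share of members is therefore no support for a difference from all genes. Of the 11, Atp2a2, Atp2a3, Ppp3ca, Ppp3cc and Rcan1 were higher at day 14, and Cacna1g, Cacna1c, Cacng7, Atp2b4, Ppp3cb and Nfatc4 were lower. Cacna1g changed between the days by -1.29 with LAMZ (SE 0.14, limma adjusted p = 0.00151, called in all 20 alternatives), beside -0.32 in control cells (adjusted p = 0.229). Nfatc4 changed by -0.66 with LAMZ (adjusted p = 0.0269), Cacna1c by -0.67 (adjusted p = 0.0221) and Cacng7 by -0.69 (adjusted p = 0.0464), and the calls of Nfatc4 and Cacna1c were lost when any 1 of the 4 LAMZ libraries was left out (adjusted p up to 0.138 and 0.115). The call of Cacng7 was lost when any 1 library other than day 14 LAMZ replicate 2 was left out (adjusted p up to 0.205). The comparisons within a treatment share libraries with those between treatments, so they are no separate evidence.

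For the difference of the LAMZ effect between the days, no member was called by limma, beside 0.623% of all tested genes. An unadjusted limma p under 0.05 was found for 9 of the 44 members, beside 2061 of the 12514 tested genes. The lowest adjusted p was that of Cacna1g, whose log2 fold change at day 14 minus that at day 7 was -0.97 (SE 0.20, limma adjusted p = 0.0767). It was called under 2 of 19 alternatives, among them limma-voom on the recovered reads, which called 1 member. For no member, Cacna1g included, is the LAMZ effect therefore shown to differ between the days. This holds also where an effect passed the threshold on 1 day and not on the other.

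Genes that work beside the members were taken from a list of 119 genes of calcium exchange, entry, storage and calcium-responsive transcription, of which 75 were tested. At day 7, 4 of the 75 were called higher and 7 lower with LAMZ, beside 4.35% and 8.49% of all tested genes. At day 14, 8 were called higher and 7 lower, beside 6.96% and 16% of all tested genes. The median log2 fold change of the list was 0.01 and -0.01. Mef2c, a transcription factor activated by calcium signals, had 4.29 and 5.25 RPKM in day 7 control and 16.8 and 13.7 with LAMZ, and 6.80 and 8.33 in day 14 control and 13.4 and 13.9 with LAMZ. Its log2 fold change was 1.49 (SE 0.15, limma adjusted p = 0.000971) at day 7 and 0.78 (adjusted p = 0.00908) at day 14. Of the sodium-calcium exchangers, which export calcium, Slc8a3 was higher with LAMZ at day 7 (4.92 and 9.04 in control, 19.3 and 17.1 with LAMZ, limma adjusted p = 0.0110). Slc8a3 was not called at day 14. In contrast, Slc8a1 was lower, with 3.71 and 3.15 in control and 1.04 and 1.18 with LAMZ at day 7 (log2 fold change -1.07, adjusted p = 0.00438) and again at day 14 (-0.84, adjusted p = 0.00696). Jph2, which joins the store to the plasma membrane, was higher on both days, with 19.2 and 13.6 RPKM in control and 37.7 and 32.9 with LAMZ at day 7 and a log2 fold change of 1.08 on each day (adjusted p = 0.00516 and 0.00291 from limma). The phospholipase Plcd1 was higher at day 14 by 0.97 and the anchoring protein Akap5 by 0.85 (adjusted p = 0.00178 and 0.0439 from limma).

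The largest falls of the list were those of Nfam1, an activator of calcineurin and NFAT signals in immune cells, with log2 fold changes of -1.14 at day 7 and -1.72 at day 14 (adjusted p = 0.0287 and 0.00313 from limma). It had 1.23 and 1.88 RPKM in day 7 control and 0.0728 and 0.238 with LAMZ, and it moved with the macrophage markers described above. Egr1, an immediate early gene, was lower by -0.83 and -0.91 (adjusted p = 0.0424 and 0.0184), and Plcg2, a phospholipase of blood cells, was lower at day 14 by -0.99 (adjusted p = 0.00583). Fos, a calcium-responsive gene, had 3.93 to 4.74 RPKM in day 7 control and 3.18 to 3.59 with LAMZ, and did not pass the test on either day (log2 fold change -0.28 on both, SE 0.13). Nfatc1, the NFAT factor outside the name pattern, had 2.57 to 4.57 RPKM over the 8 libraries and did not pass the test (log2 fold change 0.31 and 0.29). The coactivator gene Ppargc1a was not tested, at 0.0336 to 0.311 RPKM.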

How the data were processed

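RNA sequencing values of 8 libraries, 2 per group, were used. The deposited values are the RPKM of each gene symbol, which the authors made with CLC Genomics Workbench from Ion Proton reads. The program version and the strand setting are not given in the sources used here, and the build named in the submitters' processing notes is mm10. The values are scaled within each library. The samples were grouped by the labels. The header of 1 file, that of day 7 LAMZ replicate 1, carries a treatment code that differs from the labels, and the label was used.

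In each file of 51826 rows, 4 rows with symbols turned into dates were dropped. Symbols were matched to GENCODE M21 (GRCm38). Mapped reads per library were recovered as the number at which low values become whole reads (96.6% to 97.6% of 872 to 1554 values per library, tolerance 0.05), and 12494 of the 12514 tested genes (99.84%) and all 75 members came out as whole reads (tolerance 0.005; the gene length was solved from the values for 26 members). Read counts speak of counting error only.

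Testing was limited to genes that reached 1 RPKM in 2 or more libraries, and used log2(RPKM + 1) and limma 3.58.1 (R 4.3.3), as 4 groups in 1 fit with a mean-variance trend and 4 residual degrees of freedom. Benjamini-Hochberg adjustment ran over all tested genes, with a threshold of 0.05 for a call. A fold change on this scale understates the change of genes at a low level. The script was tested on simulated data. Replicates differed by more than the sampling noise (chi-square of 3.52 to 5.49 per gene). The members and lists were chosen with earlier results of these data known. Named are the members called in any comparison, the 2 tested members with the highest mean and the untested member with the highest mean of each role group, the calmodulin, calcineurin and CaMKII genes, and, of the other pathway genes, Ppargc1a, Mef2c, Fos, Nfatc1 and the 3 with the largest change called in each direction on each day. Other genes were named after their values were seen. The alternatives were other pseudocounts (0.1 and 5), filters, scalings, replicate blocks, no trend, the 4 libraries of a comparison alone, leaving out each library and, added after the data were seen, limma-voom on the recovered reads. Promoter windows are from RefSeq. A reference table of proteins was not used here, and 1 tested member is counted but not reported.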

Additional observations from a re-analysis of the deposited data

How the results depend on the processing

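No called member changed its direction under any alternative. At day 7, 4 members were called, beside 2 with no filter, 15 with every library rescaled to the same sum, 2 with the replicate block across all groups, 0 with the replicate block within each day, 0 with the 4 libraries of the comparison alone and 0 to 4 when 1 library was left out. At day 14, 7 were called, beside 20 with the same sum, 12 with median centring, 13 with limma-voom on the recovered reads and 3 to 9 with 1 library left out. The calls over all genes moved as well. Of the 12514 tested genes, the same sum called 3592 at day 7 and 5796 at day 14. At day 14, median centring called 2857 of 12514 and limma-voom 3762 of 12494. For the difference between the days, 1 member, Cacna1g, was called with the stricter filter and 1 with limma-voom, against 0. Between the days in control cells, 2 were called, beside 1 with no filter, 4 with the same sum, 0 with the block within each day, 0 with the 4 libraries alone and 0 to 2 with 1 library left out. Between the days with LAMZ, 11 were called, beside 7 with no filter, 1 with the block within each day, 6 with the 4 libraries alone and 2 to 10 with 1 library left out. Where a library was left out, the lone library of its group was taken to vary like the other groups. The cause of these changes was not tested, except that the 4 libraries alone leave fewer libraries to estimate the spread.

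The replicate numbers do not pair the libraries by the labels, and the deviations from the group mean in same-numbered libraries correlated at -0.0166 at day 7, 0.0158 at day 14, 0.0620 between the days in control cells and -0.0342 with LAMZ. Of the values recomputed under alternatives, 1700 kept their side of the threshold, 150 lost it and 41 passed it. With 2 libraries per group, 3463538 to 5832101 mapped reads and as few as 1 read per library for the lowest tested member, changes of members near an RPKM of 1 are imprecise.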
